A study of Mus musculus with 147 samples.

Results

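Renin cells of the WT mouse kidney were compared by how much renin mRNA each one held. Of the 51 WT wells of a microfluidic single-cell capture, 15 passed limits of at least 100000 counts, at least 1000 genes with a count and at most 25% of counts in mitochondrially encoded (mt-) genes. These 15 wells were split at 50000 CPM (counts scaled to a total of 1000000 per well, with mt- genes left out of the total) of *Ren1*, the renin gene, into 8 Ren1-rich and 7 Ren1-poor wells, so that the members were chosen by a measured value. The whole series held 147 wells. The WT cells came from adult C57BL/6 mice with both copies of the renin gene (Ren1c+/+) that carried the Ren1c-YFP transgene, in which yellow fluorescent protein is driven by regulatory sequence of *Ren1c*. YFP-positive cells were sorted from kidney cortex, cells of several mice were pooled, and no label gives the mouse of a well. The other group, Renin-null wells, came from Ren1c-/- mice with the same transgene, in separate captures, and is used here only for values set side by side.

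The WT wells are single cells of 1 capture, so the 15 wells count as 1 sample and no test was run on them. All differences between the Ren1-rich and Ren1-poor wells are descriptions of these wells. Since *Ren1* made the split, its own values are not a result. The paper states that chambers with 1 viable cell were picked out by eye under a bright-field microscope. A chamber could still include more than 1 cell, and no doublet caller was run.

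Renin cells sit in the wall of the afferent arteriole at the entrance to the glomerulus. They are related to arteriolar smooth muscle cells, and cells of the renin lineage are known to move between a renin-producing, granulated state and a contractile state. Renin synthesis and release are raised by cyclic AMP, through the stimulatory G protein, adenylyl cyclases and protein kinase A, and calcium is known to lower release. The enzyme encoded by *Akr1b7*, an aldo-keto reductase, is a known marker of renin cells.

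The sequences upstream of both genes are shown because *Ren1* set the split and *Akr1b7* followed it, and because the reporter is driven by sequence of *Ren1c*. Both are the 250 bases before the annotated start in RefSeq on GRCm38.p6 (GENCODE, used for gene coordinates below, starts both genes within these windows, *Ren1* at 133350510), 5′ to 3′ on the plus strand, with motif matches in capitals. In *Ren1* (chr1:133350424-133350673) the capitals mark the homeobox core TAATAAA and the TATA box TATAAA. In *Akr1b7* (chr6:34412112-34412361) they mark the nuclear receptor element AGGTCA, matched on the minus strand and so printed as TGACCT, and the CCAAT box CCAAT.
Ren1: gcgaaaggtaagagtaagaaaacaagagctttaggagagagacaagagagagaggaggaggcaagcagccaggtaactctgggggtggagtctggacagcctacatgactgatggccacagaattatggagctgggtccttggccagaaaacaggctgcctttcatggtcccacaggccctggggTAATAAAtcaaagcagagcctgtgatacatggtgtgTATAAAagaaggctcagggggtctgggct
Akr1b7: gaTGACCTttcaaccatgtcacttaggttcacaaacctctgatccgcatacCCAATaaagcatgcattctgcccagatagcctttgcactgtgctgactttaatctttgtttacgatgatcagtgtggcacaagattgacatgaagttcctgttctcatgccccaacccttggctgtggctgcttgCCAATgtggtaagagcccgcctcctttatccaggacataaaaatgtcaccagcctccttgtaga

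The homeobox core, searched on both strands, as were the other motifs, was in 4.52% of the 32851 RefSeq promoter windows of this length and the TATA box in 12.4%. The nuclear receptor element was in 14.0% and the CCAAT box in 33.8%. The homeobox core started 65 bases before the *Ren1* start and the TATA box 29 bases before it, and *Akr1b7* had neither. The cyclic AMP response element core TGACG (17.8% of windows) and the Rbpj motif GTGGGAA (5.42%) were in neither window. These matches describe letters, not bound sites.

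The Ren1-poor wells held 740, 1247, 2320, 5400, 6104, 16285 and 38873 CPM of *Ren1*. The Ren1-rich wells held 61657, 63335, 137057, 177158, 196040, 256727, 312739 and 339358 CPM. The wells therefore formed a ladder rather than a pair of clusters, and the well just inside the limit (cell 18, 61657 CPM) and the well just outside it (cell 47, 38873 CPM) lay close together. *Ren1* took 22.2% of the summed counts outside mt- genes in the Ren1-rich wells and 1.13% in the Ren1-poor wells, so all other genes were put on a depth without *Ren1* and mt- genes.

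Depth, gene number and mt- share were alike at the median. Total counts ran from 6493362 to 12067059 in the Ren1-poor wells and, leaving out cell 23, from 7739469 to 17124854 in the Ren1-rich wells, and median gene numbers were 5803 and 5627. The median share of mt- counts was 6.85% and 7.11%. Counts at this depth leave little counting error on abundant genes. The 95% intervals below cover counting error only, on PCR copies without molecular identifiers, and not the spread between cells.

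Some wells stood apart. Cell 23, at 63335 CPM of *Ren1* just inside the limit, had 110872 counts, 2091 genes and 24.7% mt- counts, and where it changed a printed range, median or call most, the value without it is also given. Without it, 6.40% of genes kept were higher and 2.46% lower in 75% of pairs. Its 5288 *Ren1* counts were 0.0444% of the *Ren1* counts of the 14 WT wells that share one of its sequencing indices, and how many of its reads came from other wells or from free RNA was not tested. Cell 10 had 10791 genes, against at most 7614 in the other 14 wells, and held 3848 CPM of proximal tubule markers. The *Ren1* counts of the Ren1-poor wells came to 0.152% to 3.63% of those in wells sharing an index.

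No gene separated all 8 Ren1-rich from all 7 Ren1-poor wells, among 6800 genes with at least 10 CPM in 1 group and a count in at least 3 wells (0%). By summed counts, 2785 genes (41% of those tested) were at least 2-fold higher and 2412 (35.5%) at least 2-fold lower in the Ren1-rich wells. Such a share is the background for every count below. In 4688 of these 5197 genes, 1 well gave more counts of the higher group than all its other wells together, and 3221 kept their direction without each well in turn. A measure that weights all wells equally is the share of the 56 Ren1-rich and Ren1-poor well pairs in which the Ren1-rich well was higher, with ties split. It reached 75% in 313 genes (4.6%) and the Ren1-rich well was lower in 75% of pairs in 231 genes (3.4%). These counts moved with the choice of wells: with each well left out they ran from 222 to 435 and from 167 to 396, the last without cell 10, and a *Ren1* limit of 100000 CPM gave 644 and 74. The 313 became 158 when counts at or below 1% of an index-sharing well were set to 0, 124 at a limit of 50% mt- counts, and 208, with 111 lower, when wells were thinned to equal depth.

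*Akr1b7* (chr6:34412334-34423142, plus strand, GENCODE on GRCm38) came closest to following *Ren1* among the renin cell markers. It was at 13.3, 44.6, 66.1, 1120.2, 1688, 3179 and 6856 CPM in the Ren1-poor wells. In the Ren1-rich wells it was at 3635, 4043, 4591, 9870.2, 11373, 12858, 14030.4 and 27203 CPM. Every Ren1-rich well was above 6 of the 7 Ren1-poor wells, and only cell 6, at 6856 CPM, reached into the range of the Ren1-rich wells. By summed counts *Akr1b7* was at 11465 and 2040 CPM, a log2 ratio of 2.49 (95% interval 2.48 to 2.50), which ran from 2.14 to 3.40 with each well left out. The Ren1-rich well was higher in 94.6% of pairs. The *Akr1b7* counts of cells 5, 44, 47 and 6 were 12.4%, 6.58%, 7.44% and 26.1% of those in wells sharing an index.

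**Figure D1:**
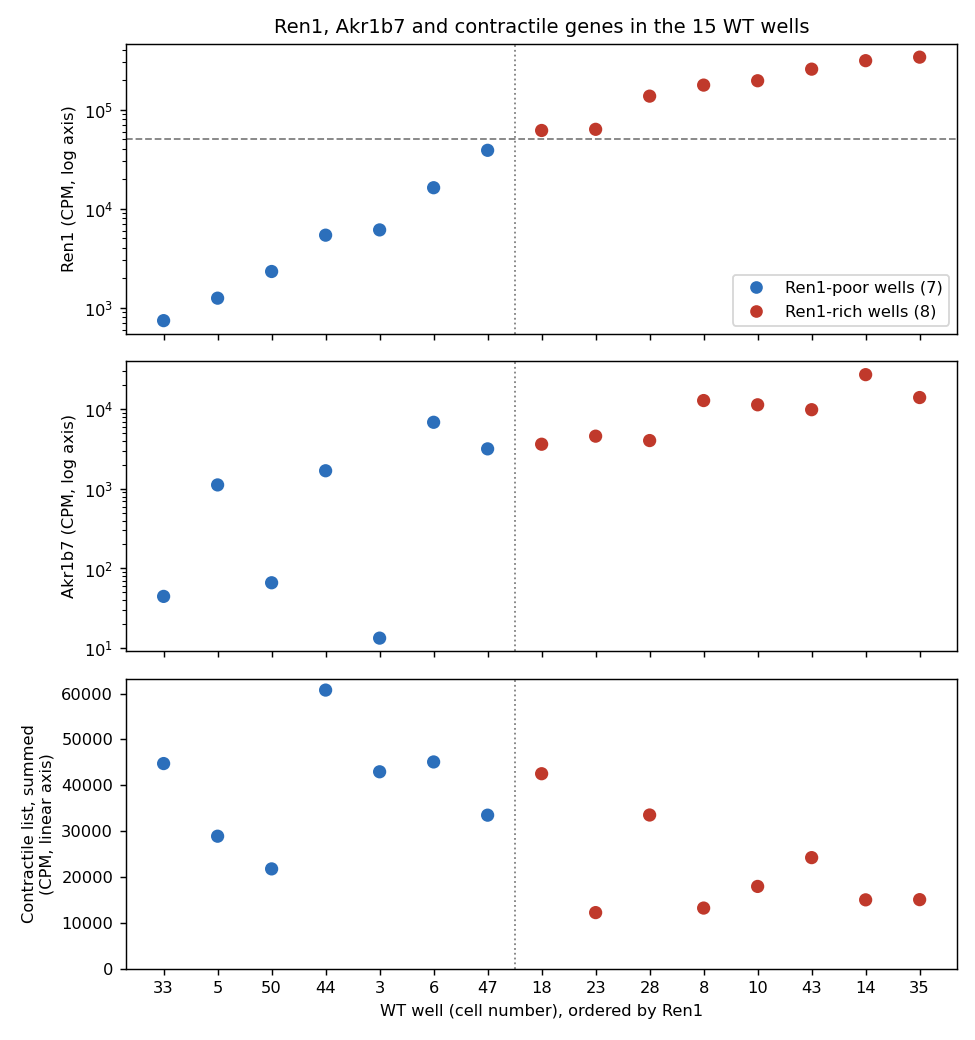
*Ren1* (top) and *Akr1b7* (middle) in CPM on log axes, and the summed CPM of the contractile list (bottom, linear axis), for the 15 WT wells ordered by *Ren1*; blue points are Ren1-poor and red points Ren1-rich wells, and the dashed line is the limit of 50000 CPM. *Akr1b7* is at 3635 CPM or more in all red wells, and cells 18 and 28 are the red wells with the most contractile transcripts, at 42528 and 33524 CPM.

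The other renin cell markers were below *Akr1b7* in their share of pairs. Of the 9 list members that passed the filter, *Akr1b7* included, 4 were at least 2-fold higher and 1 at least 2-fold lower, and the list's median log2 ratio was -0.08 against 0.20 for all genes kept. This order held by mean CPM over wells (-0.01 against 0.08) and with TMM scaling (-0.32 against -0.04). It turned in wells thinned to equal depth (0.46 against -0.04), with no filter on low genes (0.82 against 0.54) and without cells 10 and 23 (0.09 against -0.30). With each well left out the list's median ran from -0.23 to 1.00. Higher in 75% of pairs were 2 of the 9, *Akr1b7* and the reporter *EYFP* (22.2%, background 4.6%), and 3 without cell 23 (33.3%, background 6.40%). *Rgs5*, a regulator of G protein signaling, was abundant in both, at 7161 to 30159.6 CPM in the Ren1-poor wells and 990.2 to 37014 CPM in the Ren1-rich wells, with medians of 15127 and 13349.8 CPM. *Nr2f2*, a nuclear receptor transcription factor, had medians of 224 and 414 CPM and a log2 ratio of 1.71, with 71.4% of pairs higher (75.5% without cell 23). *Gja5*, the connexin that couples renin cells, had medians of 0.52 and 12.2 CPM, and its highest value, 3286 CPM, was in the shallow cell 23 (282 CPM in the next).

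The level of the reporter transcript varied widely among these sorted cells. *EYFP* was at 1 CPM or less in 6 of the 7 Ren1-poor wells and at 573 CPM in cell 47, the Ren1-poor well with the most *Ren1*. In the Ren1-rich wells it was at 0.32, 0.51, 1.28, 12.8, 288, 549, 1289.8 and 2554 CPM. Cells 28, 8 and 14, all Ren1-rich, were therefore about as low in *EYFP* as most Ren1-poor wells, although the groups' summed levels were 737 and 91.6 CPM.

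Contractile genes lay lower in the Ren1-rich wells in most members, mostly by less than 2-fold. Of the 19 contractile genes that passed the filter 16 were lower by any amount (47.5% of all genes kept were), and the median log2 ratio was -0.71. By the 2-fold measure 6 were lower (31.6%, below the background of 35.5%) and 2 higher. By well pairs, 6 of the 19 were lower in at least 75% of well pairs (31.6% of the list, background 3.4%) and none was higher in as many. The 6 were *Tpm1*, *Mylk*, *Tagln*, *Myl9*, *Cnn1* and *Myh11*. Without cell 23 there were 5 (26.3%, background 2.46%), and without cells 10 and 23 there were 4 (21.1%, background 5.42%). Summed over the list, the Ren1-poor wells held 21779 to 60761 CPM with a median of 42950 CPM. The Ren1-rich wells held 12250 to 42528 CPM with a median of 16515 CPM, and cells 18 and 28, 2 of the 3 Ren1-rich wells with the least *Ren1*, were the highest of them, while cell 23, the third, was the lowest of all 15 wells.

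*Tpm1*, a tropomyosin that lies along actin filaments, was the clearest of these. It was at 565, 1964, 2114, 2602, 2949.7, 3268 and 5191 CPM in the Ren1-poor wells. In the Ren1-rich wells it was at 102, 115, 197, 416, 645, 1109.5, 1245 and 1508 CPM. All 8 Ren1-rich wells were below 6 of the 7 Ren1-poor wells, the exception being cell 50 at 565 CPM, and the log2 ratio was -1.90 (-2.11 to -1.71 with each well left out).

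*Mylk*, the kinase that starts smooth muscle contraction by acting on the myosin light chain, was at 1093 to 6848 CPM (median 3041) in the Ren1-poor wells. In the Ren1-rich wells it was at 0 to 6524 CPM (median 471), the lowest being 85.3 CPM without cell 23, and only cells 18 and 43 exceeded the lowest Ren1-poor well. *Tagln*, an actin-binding protein of smooth muscle, had medians of 7542 and 1906 CPM. *Myl9*, the regulatory light chain, had medians of 4102 and 2068 CPM. *Myh11*, the smooth muscle myosin heavy chain, was at 901 to 10998 CPM in the Ren1-poor wells and 1.93 to 6492 CPM in the Ren1-rich wells, of which 4 were at 76.7 CPM or less, and without cell 23 it was lower in 73.5% of pairs. *Acta2*, smooth muscle actin, overlapped widely, at 1392 to 19050.5 and 307 to 10354 CPM (982 CPM at the lowest without cell 23), with a log2 ratio of -0.40 and the Ren1-rich well lower in 69.6% of pairs.

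Members of the mural list, which marks pericytes and other cells that wrap vessels, were split. *Pdgfrb*, the receptor for PDGF-B, was at 51.9 to 4169 CPM (median 704.05) in the Ren1-poor wells and at 0 to 206 CPM (median 2.26) in the Ren1-rich wells, and was higher in a Ren1-rich well in 10.7% of pairs. *Mcam*, an adhesion molecule, was at 1.38 to 2371 CPM in the Ren1-poor wells and at 0.31 to 190.1 CPM in the Ren1-rich wells. *Cspg4*, the NG2 proteoglycan, was at 488 and 162 CPM in the summed counts, but the Ren1-rich well was lower in only 69.6% of pairs. Over the 12 mural genes kept, the median log2 ratio was -0.36, and 5 were at least 2-fold lower and 1 higher. By any amount 7 were lower and 5 higher, among them *Gucy1b1* (1.47), *Des* (0.89) and *Ndufa4l2* (0.65). In 75% of pairs 2 were lower (16.7%, background 3.4%) and none was higher. *Pdgfra*, another PDGF receptor, had at most 0.69 CPM in any of the 15 wells.

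**Figure D2:**
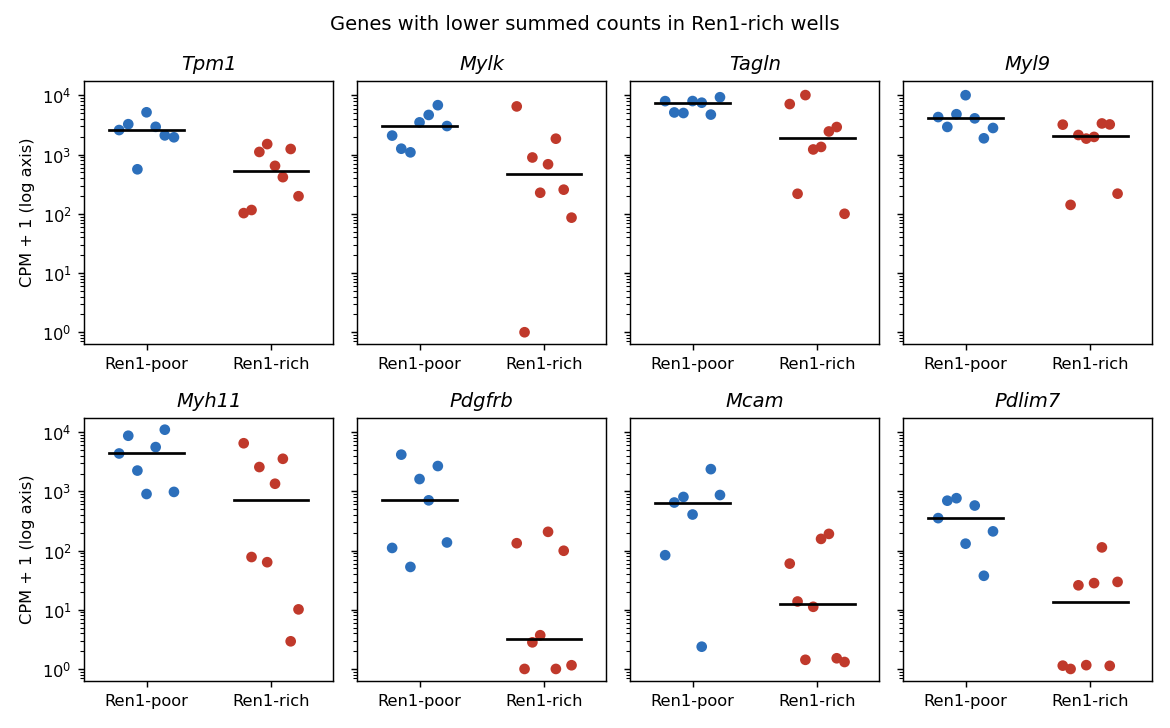
CPM + 1 (log axis) of 8 contractile and mural genes in each Ren1-poor (blue, 7) and Ren1-rich (red, 8) WT well, with a bar at the median. The Ren1-rich wells of *Tpm1* end at 1508 CPM, below 6 of the 7 Ren1-poor wells; the groups overlap in every panel.

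The contractile difference was not seen in the WT wells outside the limits. There were 36 such wells, with a median of 64.9% mt- counts, and 17 of them had at least 50000 CPM of *Ren1*. Among them the median log2 ratio of the contractile list by summed counts was 3.15, with *Myh11* at 3.61 and *Mylk* at 3.20, opposite in sign to the wells within the limits. Well by well the levels lay close: *Myh11* had medians of 129 CPM in the wells under the *Ren1* limit and 119 CPM in those above it, with 45.8% of pairs higher, and *Mylk* had 47.4% of pairs higher. *Akr1b7* there had a log2 ratio of 3.59 by summed counts, but medians of 837 and 692 CPM and 58.2% of pairs higher. In those wells no listed gene was higher or lower in 75% of pairs, and only 3 and 1 of 3191 genes were.

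Receptors and the cyclic AMP pathway had more genes at least 2-fold higher than lower, as did all genes kept (41% and 35.5%), and few held across well pairs. Of 16 receptor genes kept, 8 were at least 2-fold higher and 4 lower, with a median of 0.78. That median was -0.06 in wells thinned to equal depth and -0.58 in the wells outside the limits. *Adora1*, the adenosine receptor known to inhibit renin release, had counts in 5 Ren1-rich wells, at 16.6, 22.3, 22.3, 130.4 and 132 CPM, and stayed at 0.17 CPM or less in all 7 Ren1-poor wells. *Ednra*, an endothelin receptor, was at 0 to 1414 CPM in the Ren1-poor wells and 0.62 to 2569 CPM in the Ren1-rich wells, with 62.5% of pairs higher.

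Of 22 genes of the cyclic AMP pathway, 12 were at least 2-fold higher and 4 lower, with a median log2 ratio of 1.15. *Gnas*, which encodes the stimulatory G protein subunit, was at 0.29 to 1594 CPM (median 427) in the Ren1-poor wells and 179 to 2532 CPM (median 673) in the Ren1-rich wells, with 69.6% of pairs higher and a lowest Ren1-rich value of 305 CPM without cell 23. *Pde3a*, a phosphodiesterase that breaks down cyclic AMP, had medians of 153 and 234 CPM (384 CPM without cell 23), and *Akap13*, an anchoring protein of protein kinase A, 33.4 and 554 CPM. In at least 75% of pairs, 1 gene of the list was higher, *Atf1*, and 1 was lower, *Prkaca*, a catalytic subunit of protein kinase A. *Prkaca* was near 0 in most wells of both groups. It was at 0, 0.096, 0.12, 0.17, 1.49, 66.1 and 353 CPM in the Ren1-poor wells. It was at 39.5 CPM in cell 10 and at 0.08 CPM or less in the other 7 Ren1-rich wells. Its log2 ratio was -3.52, and it was 2.56 at a *Ren1* limit of 20000 CPM. Without cell 23, *Akap13* was also higher in at least 75% of pairs (75.5%, from 73.2%). Summed over the list, the Ren1-rich wells held a median of 5966 CPM and the Ren1-poor wells 3490 CPM. In the wells outside the limits the list's median log2 ratio was -0.20.

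In calcium handling, 3 of 18 genes kept were at least 2-fold higher and 5 lower. *Calm3*, 1 of 3 genes for calmodulin, was at 2.60 to 16.3 CPM in the Ren1-poor wells and 4.19 to 315 CPM in the Ren1-rich wells, with 83.9% of pairs higher. The far more abundant *Calm2* had medians of 2719 and 1368 CPM.

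**Figure D3:**
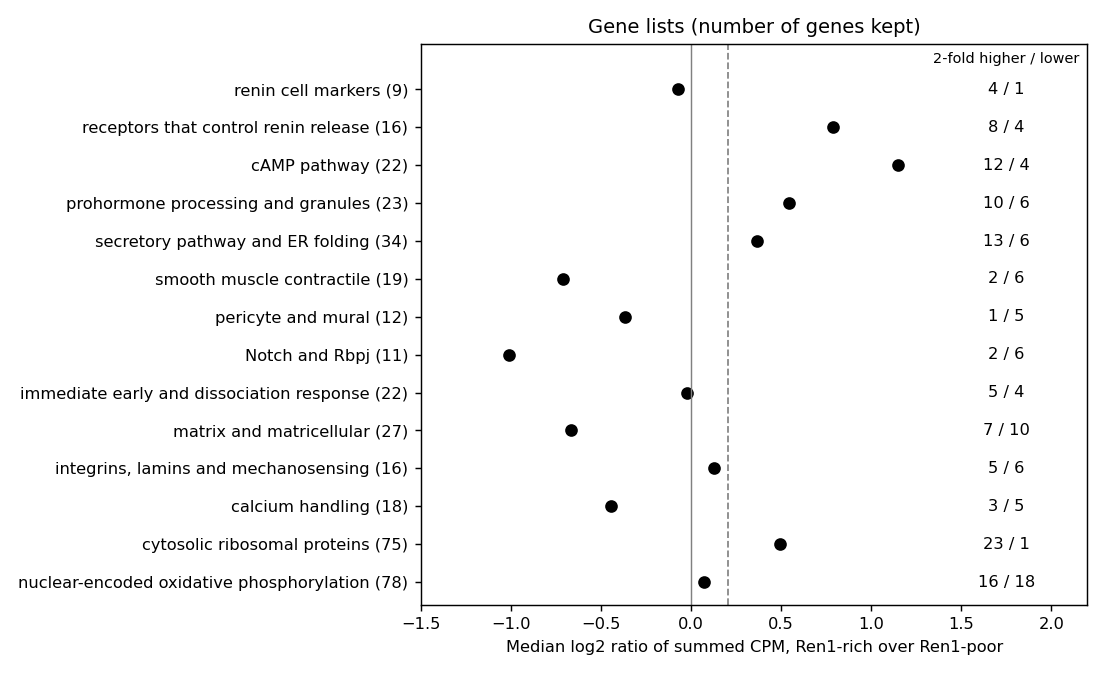
Median log2 ratio of summed CPM, Ren1-rich over Ren1-poor, for each list with at least 9 genes kept (number in brackets); the dashed line is the median of all genes kept, 0.20, and the right column counts genes at least 2-fold higher and lower. The Notch, contractile and matrix lists lie lowest, and the cyclic AMP list highest, at 1.15.

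Genes of the granule and the secretory pathway, which process and carry renin, moved in both directions. Of 23 granule genes kept, 10 were at least 2-fold higher and 6 lower, with a median of 0.54, and none reached 75% of pairs in either direction. Without cell 23, 3 of the 23 were higher in 75% of pairs (13.0%, background 6.40%), *Ctsa*, *Vamp8* and *Rab3a*, and without cells 10 and 23, 1 of 22 was (4.55%, background 5.22%). *Ctsb*, which encodes the protease cathepsin B, was at 0.48 to 12504 CPM in the Ren1-poor wells and, apart from cell 23 at 38.4 CPM, at 1164 to 5478 CPM in the Ren1-rich wells. Of the 7 Ren1-poor wells, 3 were at 32.9 CPM or less. *Ctsl* had 84.2% of its Ren1-rich counts in cell 8. Of 34 genes of the ER and secretion, 13 were at least 2-fold higher (38.2%, background 41%) and 6 lower (17.6%, background 35.5%), with a median of 0.37, and 1 was higher and 1 lower in 75% of pairs. The higher was *Srp9*, a subunit of the signal recognition particle, at 0 to 298 CPM (median 0) in the Ren1-poor and 0 to 562 CPM (median 20.3) in the Ren1-rich wells, with 80.4% of pairs higher. The lower was *Canx*, a chaperone of the ER, which had medians of 1321 and 152 CPM (261 CPM without cell 23) and was lower in 78.6% of pairs, while *Hspa5*, another chaperone, had a log2 ratio of 0.52.

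Notch genes, which act between neighbouring vessel cells, had a median log2 ratio of -1.01 over 11 genes kept, with 2 at least 2-fold higher and 6 lower. *Notch2* was at 422 to 2033 CPM in the Ren1-poor wells and 76.7 to 1965 CPM in the Ren1-rich wells, with a lowest value of 203 CPM without cell 23. *Jag1*, a Notch ligand, had medians of 1165 and 287 CPM. By well pairs, 2 of the 11 were lower in at least 75% (18.2%, background 3.4%) and none was higher. These were *Notch2*, lower in 78.6% of pairs (75.5% without cell 23), and *Jag1*, lower in 75% (71.4% without cell 23). Without cells 10 and 23 neither was lower in 75% of pairs, and 1 gene of the list was higher in as many (9.09%, background 5.22%).

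In the matrix list 7 of 27 genes were at least 2-fold higher and 10 lower, with a median of -0.66, and both directions held single genes with a wide gap. By well pairs, 1 was higher in at least 75% (3.70%, background 4.6%) and 4 were lower (14.8%, background 3.4%). These became 2 and 3 of 27 without cell 23, and 1 and 4 of 26 without cells 10 and 23. *Mgp*, matrix Gla protein, a secreted inhibitor of calcification, was at 0.25, 1.03, 1.35, 1.85, 2.49, 10.1 and 561 CPM in the Ren1-poor wells. In the Ren1-rich wells it was at 118, 138, 627, 1025, 2126, 3507, 3944 and 4517 CPM. All 8 Ren1-rich wells were above 6 of the 7 Ren1-poor wells, the exception being cell 33, the well with the least *Ren1*. The log2 ratio was 4.75, or 9.37 without cell 33, and -1.04 in the wells outside the limits. *Sparc*, a matricellular protein, had medians of 555 and 38.3 CPM and was lower in 76.8% of pairs. *Eln*, elastin, was at 117 CPM at most in the Ren1-poor wells and 38.4 CPM at most in the Ren1-rich wells, or 16.0 CPM without cell 23. *Sparcl1* and *Timp3*, both secreted into the matrix, had log2 ratios of -0.07 and 0.00.

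The lists of mechanosensing and of immediate early genes gave no common direction. Of 16 genes for integrins, lamins and mechanosensing, 5 were at least 2-fold higher and 6 lower. *Lmna*, the nuclear lamin, was at 190.2 to 2776 CPM in the Ren1-poor and 511 to 6915 CPM in the Ren1-rich wells. Of 22 immediate early genes, which also respond to tissue dissociation, 5 were at least 2-fold higher and 4 lower. *Jun* was at 40.8 to 782 CPM in the Ren1-poor wells and 29.0 to 3166 CPM in the Ren1-rich wells, higher in 75% of pairs. *Fos* was at 734 to 7754 CPM in the Ren1-poor and 18.0 to 7746 CPM in the Ren1-rich wells, with a log2 ratio of 0.00.

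Ribosomal protein genes were higher more often than lower, with 61 of 75 higher by any amount (52.5% of all genes kept). By the 2-fold measure 23 were higher (30.7%, background 41%) and 1 lower (1.33%, background 35.5%), both below the background. By well pairs, 4 of the 75 were higher in at least 75% (5.33%, background 4.6%), 13 without cell 23 (17.3%, background 6.40%) and 9 without cells 10 and 23 (12%, background 5.22%). Their median log2 ratio was 0.49, and it was 0.32 without cells 10 and 23. Their summed level had a median of 25120 CPM in the Ren1-poor wells and 29093 CPM in the Ren1-rich wells, and the 3 highest wells were cells 10, 14 and 35. Nuclear genes of oxidative phosphorylation moved in both directions, with 16 of 78 at least 2-fold higher (20.5%, background 41%) and 18 lower (23.1%, background 35.5%). In 75% of pairs 1 was higher (1.28%, background 4.6%) and 3 lower (3.85%, background 3.4%). These became 6 and 2 of 78 without cell 23 (7.69% and 2.56%, background 6.40% and 2.46%). Without cells 10 and 23 they were 3 and 7 of 77 (3.90% and 9.09%, background 5.22% and 5.42%). There 12 were at least 2-fold higher (15.6%, background 35.6%) and 22 lower (28.6%, background 42.7%).

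The genes that separated the wells most completely included *Mgp*, *Akr1b7*, *Tpm1* and *Pdgfrb* of these lists, and genes outside them. Ordered by the share of pairs, among genes whose direction held in 3 ways of averaging and without each well, the first 10 that were higher were *Mgp*, *Alg6*, *Akr1b7*, *Got2*, *Clu*, *Epn2*, *Plcb1*, *H2-Ke6*, *Vps35* and *Gng11*. The first 10 that were lower were *Pdlim7*, *Zbtb11*, *Cask*, *Aig1*, *Tpm1*, *Ap2b1*, *Dnmt3a*, *Sfswap*, *Usp39* and *Pdgfrb*. These 20 were picked for their separation, so that separation is a description.

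*Clu*, clusterin, a secreted chaperone, was at 1.15 CPM or less in 6 Ren1-poor wells and at 526.3 CPM in cell 33, against 2.17, 25.6, 126, 175, 704.3, 779, 1292 and 2786 CPM in the Ren1-rich wells. *Gng11*, a G protein gamma subunit, was at 0.39 to 756 CPM in the Ren1-poor and 153 to 2065 CPM in the Ren1-rich wells, with 91.1% of pairs higher. *Got2*, the mitochondrial aspartate aminotransferase, had no count in any Ren1-poor well, which allows up to 0.0459 CPM over the group, and was at 12.8 CPM or more in 5 Ren1-rich wells. The 12.8 CPM was in the shallow cell 23, and the next of these wells, cell 43, was at 29.9 CPM. *Epn2*, an adaptor of clathrin-coated pits, was at 0 to 292 CPM in the Ren1-poor and 25.6 to 3867 CPM in the Ren1-rich wells, with a lowest value of 151 CPM without cell 23. *Vps35*, a subunit of the retromer that returns cargo from endosomes, was at 0 to 9.16 and 0.96 to 1713 CPM, with a highest value of 887.99 CPM without cell 23. *Alg6*, a glucosyltransferase of N-glycan assembly, was at 0.75 CPM or less in all Ren1-poor wells, and cell 18 alone of the Ren1-rich wells was as low, at 0.14 CPM.

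*Atp6ap2*, the (pro)renin receptor, was at 962 CPM or more in cells 18, 23, 43 and 35 and at 34.3 CPM at most in the Ren1-poor wells, with 89.3% of pairs higher. In cells 28, 8, 14 and 10, also Ren1-rich, it was at 0.75, 2.55, 37.3 and 39.1 CPM. By summed counts it was the 1 higher gene of the 4 kept from the renin-angiotensin list. The other 3 were lower by summed counts, and the list's median log2 ratio was -0.43. By well pairs they were not lower: the Ren1-rich well was higher in 60.7% for *Agtr1a*, 57.1% for *Enpep* and 51.8% for *Lnpep*.

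Among the genes that were lower, *Pdlim7*, which binds actin filaments through a PDZ domain, was at 36.5 to 765 CPM in the Ren1-poor wells and at 0 to 112 CPM in the Ren1-rich wells, where cell 23 was the well at 0. Its Ren1-rich well was lower in 98.2% of pairs, the highest share of any gene. *Dnmt3a*, a DNA methyltransferase, was at 0.74 to 1199.6 CPM in the Ren1-poor wells and, in 6 of the 8 Ren1-rich wells, at 0.62 CPM or less. *Zbtb11*, a zinc finger gene, was at 1.20 to 2127 CPM in the Ren1-poor and 0 to 28.6 CPM in the Ren1-rich wells, with cell 23 again the well at 0. *Cask*, a scaffold protein, was at 1.83 to 867 CPM in the Ren1-poor and 0 to 6.44 CPM in the Ren1-rich wells.

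Leaving out 1 well let a few genes separate the rest, and the examples given here were chosen after their values were seen. *Akr1b7* separated without cell 6, *Mgp* and *Clu* without cell 33, *Tpm1* without cell 50, and *H2-Ke6* without cell 23. *Aig1*, *Fkbp3* and *Sfswap* separated without cell 10, in the lower direction, and *Pdlim7* without cell 6 and again without cell 43.

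**Figure D4:**
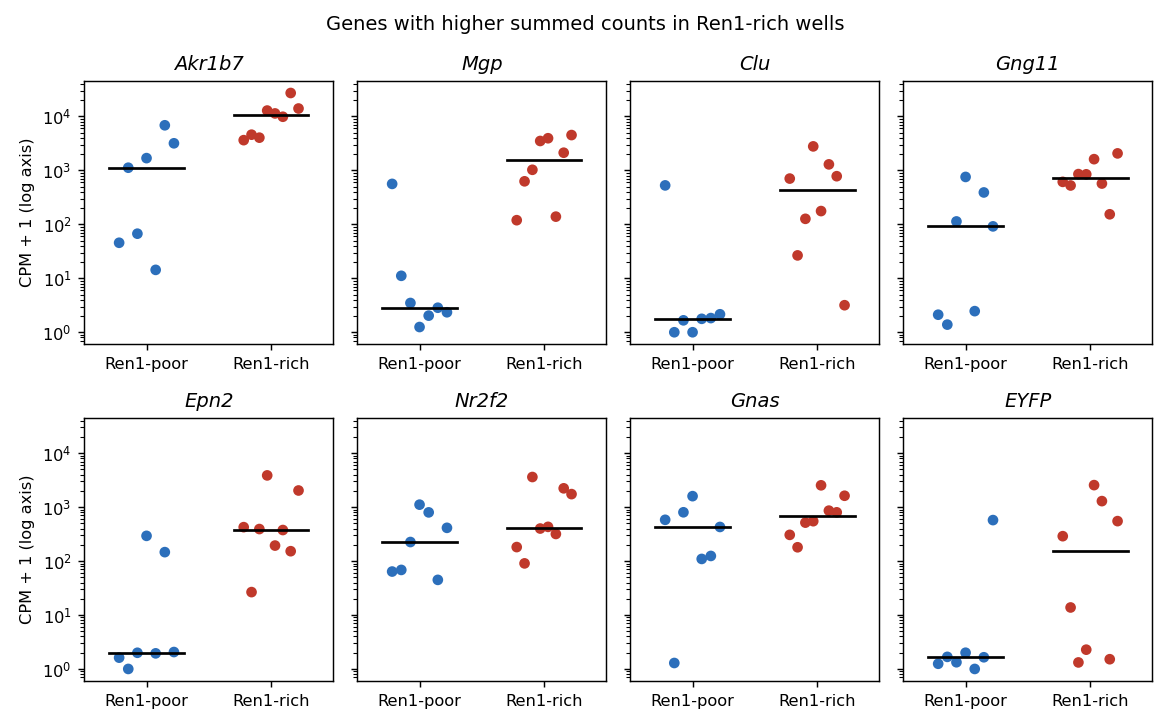
CPM + 1 (log axis) of 8 genes with higher summed counts in the Ren1-rich wells, for each Ren1-poor (blue, 7) and Ren1-rich (red, 8) well, with a bar at the median. *Akr1b7* and *Mgp* each leave 1 Ren1-poor well inside the range of the Ren1-rich wells, while *Gnas* and *Nr2f2* overlap widely.

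Transcripts of other kidney cell types were low and uneven. The 20 proximal tubule markers summed to 0.75 to 1045 CPM in the Ren1-poor wells and 8.86 to 3848 CPM in the Ren1-rich wells, with medians of 31.7 and 136 CPM. The highest, 3848 CPM, was in cell 10, and without cells 10 and 23 the highest Ren1-rich well held 390 CPM. *Gpx3*, the most abundant of them, was at 541 CPM in cell 47 and 1537 CPM in cell 10, and 2 markers were at 0 in all wells. Markers of the collecting duct reached 527 CPM in cell 10 and 443 CPM in cell 28. Those of the endothelium reached 2290 CPM in cell 43, 1926 CPM in cell 28 and 1507 CPM in cell 47, and those of fibroblasts 3550 CPM in cell 3. By summed counts *Esam* was the most abundant endothelial marker and *Gsn* the most abundant fibroblast marker. The endothelial markers *Cdh5*, *Tek*, *Plvap* and *Egfl7* and the fibroblast markers *Lum*, *Dpt* and *Clec3b* were at 0 in all 15 wells. Markers of leukocytes stayed at 18.7 CPM or less. The part of these transcripts in the differences above was not tested, beyond the values without cells 10 and 23.

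**Figure D5:**
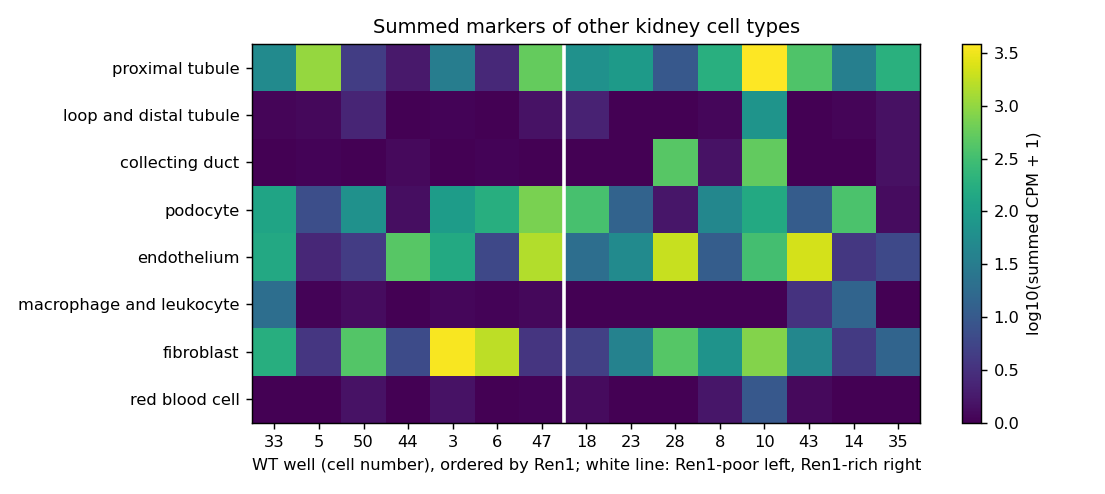
Summed CPM of the markers of 8 other kidney cell types, as log10(CPM + 1), in the 15 WT wells ordered by *Ren1*, with the white line between the Ren1-poor and Ren1-rich wells. Cell 10 is brightest for the proximal tubule, at 3848 CPM, and the collecting duct row is bright in cells 28 and 10.

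Renin-null wells, which lack a working renin gene, were read in separate captures, so genotype and capture cannot be told apart and the values are given side by side. In the 57 Renin-null wells within the same limits, *Akr1b7* was at 2235 CPM in the summed counts, against 2040 CPM in the Ren1-poor and 11465 CPM in the Ren1-rich WT wells. *Mgp* was at 4205 CPM there, and *Tagln* at 6093 CPM. *Pdgfrb* was at 94.6 CPM, against 1468 and 59.6 CPM.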

How the data were processed

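Renin cells were captured on a Fluidigm C1 chip and amplified with SMART-Seq chemistry. The authors trimmed reads with Trimmomatic 0.39 and quantified them with Salmon 0.11.2 on GRCm38.p6, per the submitters' processing notes, after FastQC 0.11.5. The authors deposited estimated counts per gene and well, from the lengthScaledTPM option of Tximport and not scaled for depth. Longer genes can still hold more counts under that option, and the counts are estimates, not molecules. They were rounded to whole counts. CPM of other genes used the depth without mt- genes and *Ren1*. Groups were compared by the log2 ratio of summed CPM, with an exact conditional 95% interval, by the share of well pairs and without each well in turn, and a group at 0 was set to 3 counts. No test was run. The arithmetic of the procedure was checked on simulated counts with 200 changed genes. Those counts had counting error but no spread between cells, so the check says nothing about that spread. Named genes were the 10 in each direction that held in 3 ways of averaging and without each well, in order of pair share, and genes drawn from the 3 most abundant members of each list, those reaching 75% of pairs and a few known markers, a choice made after their values were seen; unnamed gene models and pseudogenes were left out. Gene lists, members and the 75% measure were chosen with earlier results of these data known. A scaling alternative used edgeR 4.0.16. Wells were computed in Python 3.11.15.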

Additional observations from a re-analysis of the deposited data

Results flagged for a closer look

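Wells whose gap to the next well was a large part of their group's range, by Dixon's ratio, are given here as a description of the wells and not as a test. Chance marks about 1 group in 20 where values are normally spread, a rate that does not hold for groups at or near 0 in most wells, such as *H2-Ke6* and *Ap2b1* below. Cell 10 was highest of the Ren1-rich wells for loop and distal tubule markers (70.8 CPM), red blood cell markers (8.78 CPM), *Aig1* (88.1 CPM), *Sfswap* (26.7 CPM), *Prkaca* (39.5 CPM) and *Fkbp3* (456 CPM). Cell 23, the shallow well, was lowest for the granule list (448 CPM), *Ctsb* (38.4 CPM), *Sparcl1* (166 CPM) and *Calm2* (38.4 CPM).

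Among the Ren1-poor wells, cell 33 was highest for *Mgp* (561 CPM), *Clu* (526.3 CPM) and leukocyte markers (18.7 CPM), and lowest for *Timp3* (3.47 CPM). Cell 47 was lowest for the matrix list (7026 CPM) and *Sparcl1* (19.1 CPM), and highest for *EYFP* (573 CPM) and *Gpx3* (541 CPM). Cell 5 was lowest for *Gnas* (0.29 CPM) and *Sparc* (0.58 CPM) and highest for *Pdgfra* (0.096 CPM). Cell 44 was highest for *Ap2b1* (1119.7 CPM) and collecting duct markers (0.25 CPM) and lowest for *Calm2* (58.7 CPM). Cell 50 was highest for *Atf1* (9.94 CPM) and cell 3 for *H2-Ke6* (0.086 CPM) and *Srp9* (298 CPM).

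Of the other Ren1-rich wells, cell 43 was highest for *Cask* (6.44 CPM) and *Ap2b1* (0.16 CPM), cell 14 for leukocyte markers (13.1 CPM), cell 8 for *Usp39* (0.16 CPM) and cell 18 for *Pdgfra* (0.69 CPM).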

How the results depend on the processing

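No paired analysis was possible because the wells carry only cell numbers and no test was run. Alternatives cover the genes given values in the text and lists with at least 9 genes kept. Of 30 alternatives, a 4-fold threshold gave only counts of genes. Over the others, 1586 of 1680 values of single genes moved by less than the spread between wells and 62 moved further. Another 32, of genes at least 2-fold apart, changed sign. A further 49 changes of sign were of genes less than 2-fold apart, and are counted under the first groups. Of the list medians, 399 of 406 stayed within that spread. TMM scaling shifted every log2 ratio by -0.25. The causes of the changes below were not tested. With each well left out in turn, the genes at least 2-fold higher numbered 2171 to 2953 and those lower 2166 to 2605, the genes higher in 75% of pairs 222 to 435 and those lower 167 to 396, and the genes separating all wells 0 to 3. The receptor median then ran from 0.49 to 2.00, the contractile median from -1.05 to -0.52 and the median of all genes from -0.28 to 0.49. Leaving out cell 10 gave 396 genes lower in 75% of pairs and 3 separating, as leaving out wells with over 9000 genes did by construction. Cells 10 and 23 left out together, an alternative added after seeing the data, gave 4 separating genes. With each well left out, *Fkbp3* ran from -11.29 to 0.99 (without cell 50) and *Ctsl* from -1.08 (without cell 8) to 1.91.

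Genes at least 2-fold higher numbered 6119, and lower 4592, with no filter on low genes, and 4569 were higher with at least 100 summed counts, since more genes were then compared. Wells thinned to 78204 counts gave 1624 genes higher, 208 higher in 75% of pairs and 111 lower. Setting counts at or below 1% of an index-sharing well to 0 gave 158 genes higher in 75% of pairs, and a limit of 50% mt- counts 124. A *Ren1* limit of 100000 CPM gave 644 higher, 74 lower and 2 separating genes and *H2-Ke6* at -0.044, and a limit of 20000 CPM gave *Prkaca* at 2.56.

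In the WT wells outside the limits 1390 genes were higher and 1011 lower, with 3 and 1 in 75% of pairs. List medians there were -0.20 for cyclic AMP, -0.58 for receptors, 3.15 for contractile, 1.77 for mural, 2.19 for immediate early and 2.17 for oxidative phosphorylation genes. By summed counts, genes at least 2-fold higher within the limits and lower there were *Vps35* (-0.35), *Gja5* (-0.40), *Plcb1* (-0.51), *Atp6ap2* (-0.56), *Ednra* (-0.99), *Mgp* (-1.04), *Nr2f2* (-1.10), *Atf1* (-1.20), *Ctsl* (-1.41), *Gnas* (-1.45), *Got2* (-1.49), *Gpx3* (-2.72) and *H2-Ke6* (-4.19). Genes at least 2-fold lower within the limits and higher there were *Tpm1* (0.035), *Prkaca* (0.19), *Usp39* (0.31), *Fkbp3* (0.36), *Zbtb11* (0.37), *Cnn1* (0.57), *Dnmt3a* (0.98), *Sfswap* (1.37), *Aig1* (1.71), *Canx* (2.00), *Sparc* (2.47), *Mcam* (2.62), *Pdlim7* (3.02), *Mylk* (3.20) and *Myh11* (3.61). Of the genes less than 2-fold apart, *Notch2* (0.97), *Calm2* (2.56), *Rgs5* (2.75), *Acta2* (3.70), *Tagln* (4.12) and *Myl9* (4.79) turned higher there and *Fos* (-0.18) and *Ctsb* (-6.37) lower.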
